A study of Mus musculus with 4 samples.

Results

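10 genes of calcium release and reuptake were followed in soleus muscle of mdx mice: Cacna1s, Ryr1, Jph1, Casq1, Casq2, Atp2a1, Atp2a2, Sln, Pln and Pvalb. They were chosen by name, as the rows of the deposited gene table whose symbol equals one of these, and made up 10 of the 24054 symbols listed. All animals were female mdx mice (C57BL/10ScSn-DMDmdx/J), which carry a mutation that removes full-length dystrophin, so the vehicle group was dystrophic too and no muscle of a healthy mouse was compared. From 8 weeks of age the mice received a monthly infusion into the femoral vein, either of cardiosphere-derived cells grown from the heart of a C57BL/10ScSn/J mouse (mCDCs) or of the vehicle medium alone, and the soleus, a slow muscle of the hindlimb, was taken for RNA sequencing after 12 months. Each group was 2 libraries, and the p-values measure only the spread between these libraries. The comparison addressed which transcripts differed between mCDC and vehicle muscles at that endpoint.

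In a skeletal muscle fiber, depolarization of the surface membrane is sensed by a voltage-gated channel in the transverse tubule, which opens the ryanodine receptor of the sarcoplasmic reticulum and lets calcium into the cytosol. The calcium is bound in the reticulum by calsequestrin and returned there by the SERCA pumps, which small membrane proteins hold back, while in fast fibers parvalbumin takes up calcium in the cytosol. Dystrophic muscle is known for a disturbed calcium balance, and several genes of this cycle have a form typical of fast fibers and another typical of slow fibers or the heart.

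The 2 pump regulators are among the shortest coding sequences of the cycle, and each lies within a single exon. They are shown because Sln and Pln act on the same pumps and differ in their levels and in their pattern over the libraries. Both were read from the GRCm38 genome, the build named mm10 in the sample records, 5′ to 3′ on the plus strand, with the start and stop codons in capitals. Sln encodes sarcolipin, 31 codons before the stop, in exon 2 of 2 at chr9:53853473-53853568, and Pln encodes phospholamban, 52 codons before the stop, in exon 2 of 2 at chr10:53343864-53344022.
Sln: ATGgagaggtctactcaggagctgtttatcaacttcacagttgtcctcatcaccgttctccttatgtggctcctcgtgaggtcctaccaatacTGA
Pln: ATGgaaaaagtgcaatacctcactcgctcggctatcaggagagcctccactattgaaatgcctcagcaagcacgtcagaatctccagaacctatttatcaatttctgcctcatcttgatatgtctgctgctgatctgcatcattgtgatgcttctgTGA

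The 4 libraries held between 22481391 and 27187425 expected counts, the read estimates that RSEM gives per gene, and the 10 genes took 2.45% of them in mCDC replicate 1, 1.93% in mCDC replicate 2, 2.55% in vehicle replicate 1 and 2.16% in vehicle replicate 2. Levels are given as CPM, a gene's count relative to the total of its library, scaled between libraries by the trimmed mean of M-values (TMM). All 10 genes had whole counts in all 4 libraries and passed the filter on low counts, so that all 10 were among the 13652 genes tested. Called means here that the fold change passed 1.5 and the unadjusted p of edgeR's quasi-likelihood F-test was below 0.05. The study's methods name these thresholds.

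None of the 10 genes was called in either direction. Over all genes tested 4.0% were called, 1.26% as higher in mCDC muscles and 2.74% as lower. Of the 10 genes 5 had a positive and 5 a negative log2 fold change, with a median of -0.02 beside -0.01 over all genes tested. 0 of the 10 had an unadjusted p under 0.05 with edgeR's quasi-likelihood test, the smallest being 0.112 for Casq2, and none had one with DESeq2 or with the likelihood ratio and exact tests of edgeR. After Benjamini-Hochberg adjustment over all genes tested their smallest adjusted p from edgeR was 0.745. Of all 13652 genes tested 0 had an edgeR adjusted p under 0.05, the smallest being 0.200, so the calls rest on unadjusted p. The mCDC and vehicle libraries did not overlap for 2 of the 10 genes, Ryr1 and Casq2, while 38.7% of all genes tested did not overlap.

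**Figure D1:**
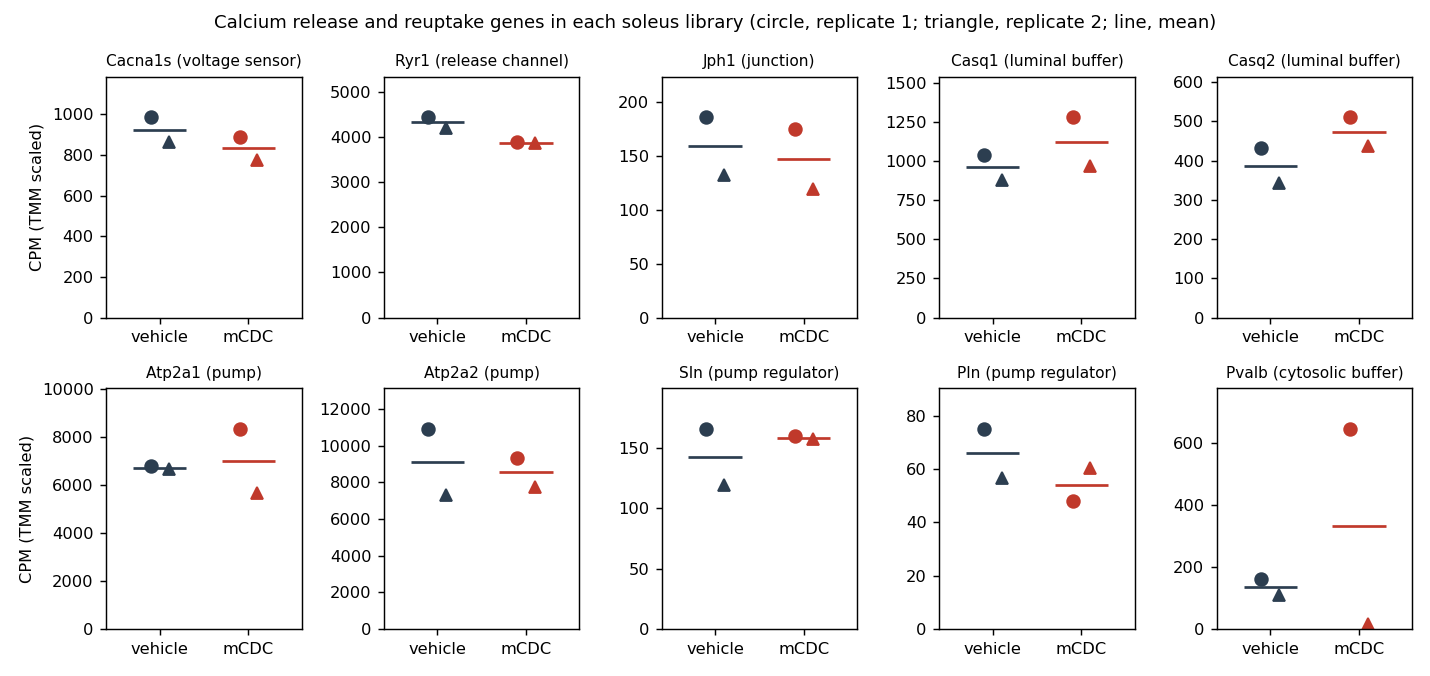
TMM-scaled CPM of each of the 10 genes (vertical axes, each from 0) in the vehicle and mCDC libraries, with a circle for replicate 1, a triangle for replicate 2 and a line at the mean of the group. The groups are apart for Ryr1 and Casq2, and the mCDC libraries of Pvalb lie at 648 and 16.8 CPM on either side of both vehicle libraries.

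Per kilobase of the longest annotated transcript, the pumps were the highest of the 10 genes. Atp2a1, the fast-fiber SERCA pump, had 1978 ± 322 CPM per kilobase (SD, n = 4 libraries), and Atp2a2, the pump of slow fibers and heart, had 1558 ± 289. The longest Atp2a2 transcript is not annotated as protein-coding. Over the longest protein-coding transcript Atp2a2 had 1970 ± 366, level with Atp2a1 within the spread between libraries. Casq1 followed at 565 ± 92.9, Ryr1 at 267 ± 18.1, Pvalb at 239 ± 289, Casq2 at 168 ± 26.8, Cacna1s at 140 ± 13.7, Sln at 114 ± 16.2, Jph1 at 31.8 ± 6.7 and Pln at 25.7 ± 4.9 CPM per kilobase. The ranges of Casq1 and Ryr1 over the 4 libraries lay apart, as did those of Sln and Jph1. The ranges of Atp2a1 and Atp2a2 overlapped, as did those of Jph1 and Pln, Cacna1s overlapped both Casq2 above it and Sln below it, and Pvalb ranged from the levels of Casq1 to below those of Pln.

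**Figure D2:**
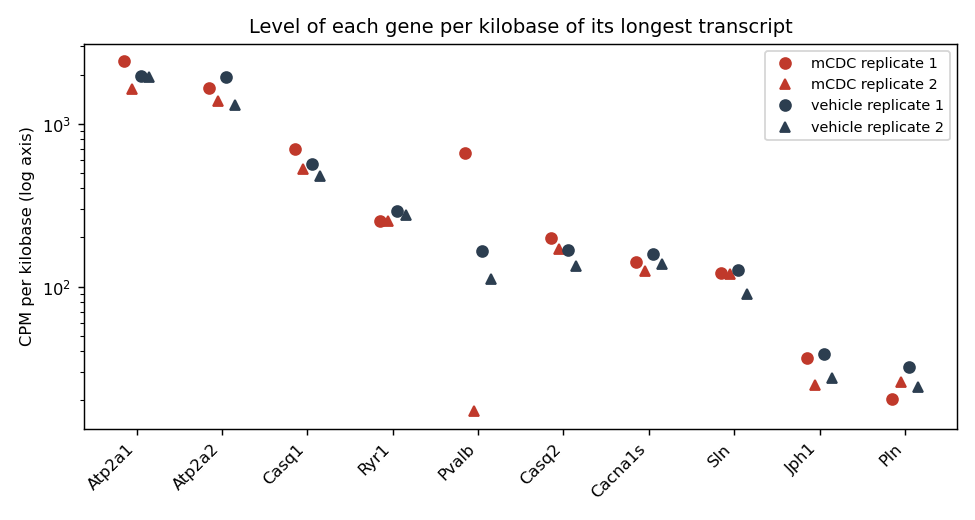
CPM per kilobase of the longest transcript (vertical log axis) for the 10 genes in order of their mean, with mCDC libraries in red, vehicle libraries in dark blue, circles for replicate 1 and triangles for replicate 2. The pumps are highest and Jph1 and Pln lowest, and Pvalb has the widest range.

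The release side was represented by Cacna1s, the voltage sensor, Ryr1, the release channel, and Jph1, which holds the transverse tubule against the reticulum. Cacna1s (chr1:136052750-136119822, plus strand) had 886 and 777 CPM in mCDC replicates 1 and 2 against 986 and 864 CPM in vehicle replicates 1 and 2. The lower vehicle library lay between the mCDC libraries, and the log2 fold change was -0.15 (SE 0.15, 95% interval -0.51 to 0.20, edgeR adjusted p = 0.828). Ryr1 (chr7:29003344-29125179, minus strand) had 3879 and 3860 CPM in the mCDC libraries against 4437 and 4205 CPM in the vehicle libraries. Both mCDC libraries were under both vehicle libraries, by a log2 fold change of -0.16 (SE 0.18, 95% interval -0.56 to 0.25, edgeR adjusted p = 0.842). Jph1 (chr1:16964560-17097889, minus strand) had 175 and 119 CPM in the mCDC libraries against 186 and 132 CPM in the vehicle libraries. Replicate 1 was the higher library in both groups, as it was for each of the 10 genes but Pln. The groups overlapped, with a log2 fold change of -0.11 (SE 0.22, 95% interval -0.62 to 0.40, edgeR adjusted p = 0.922).

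Casq1 and Casq2 encode the calsequestrins, which hold calcium inside the reticulum, and Casq2 is found in slow fibers and heart. Casq1 (chr1:172209894-172219868, minus strand) had 1281 and 970 CPM in the mCDC libraries against 1038 and 881 CPM in the vehicle libraries. The groups overlapped, with a log2 fold change of 0.23 (SE 0.18, 95% interval -0.19 to 0.65, edgeR adjusted p = 0.788). Casq2 (chr3:102086415-102146514, plus strand) had 511 and 437 CPM in the mCDC libraries against 431 and 343 CPM in the vehicle libraries. Both mCDC libraries were above both vehicle libraries, the lower mCDC library narrowly so, and the log2 fold change of 0.29 (SE 0.16, 95% interval -0.08 to 0.67, edgeR adjusted p = 0.745) stayed under 1.5-fold. All 10 intervals spanned 0. The upper bounds of Casq1, Casq2 and Atp2a1 and the lower bounds of Jph1, Pln and Atp2a2 lay beyond 1.5-fold, as did both bounds of Pvalb, so changes of that size were not shown to be absent for these 7 genes. For Cacna1s, Ryr1 and Sln the bounds lay within 1.5-fold in this fit, narrowly so for Ryr1 at -0.56. Such changes were not taken as absent there either, since each group was 2 libraries.

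The pumps return calcium to the reticulum. Atp2a1 (chr7:126445858-126463108, minus strand) had 8367 and 5659 CPM in the mCDC libraries against 6806 and 6672 CPM in the vehicle libraries. Both vehicle libraries lay between the mCDC libraries, and the log2 fold change was 0.06 (SE 0.24, 95% interval -0.49 to 0.61, edgeR adjusted p = 0.969). Atp2a2 (chr5:122453513-122502225, minus strand) had 9319 and 7769 CPM in the mCDC libraries against 10942 and 7328 CPM in the vehicle libraries. Here both mCDC libraries lay between the vehicle libraries, with a log2 fold change of -0.10 (SE 0.26, 95% interval -0.69 to 0.50, edgeR adjusted p = 0.944). Of all 31-base words in their transcripts, 0.748% in Atp2a1 and 4.49% in Atp2a2 also occurred in transcripts of other genes, among them the other pump genes.

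Sln and Pln, whose coding sequences are given above, encode proteins that lower the activity of the pumps. Sln had 160 and 157 CPM in the mCDC libraries against 166 and 119 CPM in the vehicle libraries. The mCDC libraries lay close together inside the range of the vehicle libraries, and the log2 fold change was 0.15 (SE 0.17, 95% interval -0.25 to 0.55, edgeR adjusted p = 0.848). Pln had 47.9 and 60.3 CPM in the mCDC libraries against 75.2 and 56.6 CPM in the vehicle libraries. The groups overlapped, with a log2 fold change of -0.29 (SE 0.18, 95% interval -0.71 to 0.14, edgeR adjusted p = 0.765). No 31-base word of Sln or Pln was shared with another gene.

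**Figure D3:**
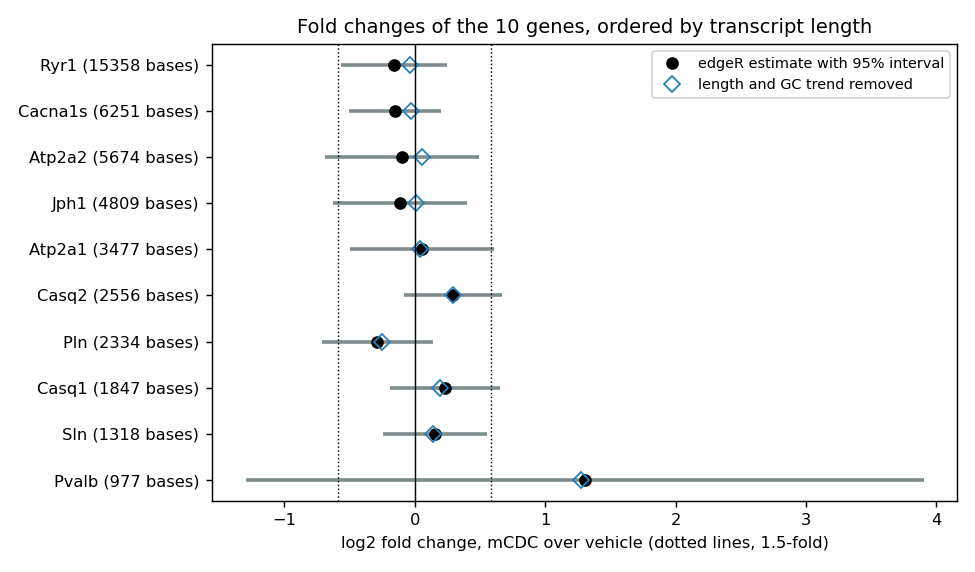
Log2 fold change, mCDC over vehicle (horizontal axis, dotted lines at 1.5-fold), for the 10 genes in order of transcript length, with the edgeR estimate and its 95% interval in black and grey and the estimate after removal of the length and GC trend as an open diamond. All 10 intervals span 0, and the 4 genes with the longest transcripts have estimates below 0 that move toward or past 0 in the second estimate.

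The sign of the estimates went with transcript length. Ryr1, Cacna1s, Atp2a2 and Jph1 had the longest transcripts of the 10 genes, from 4809 to 15358 bases, and all 4 had negative estimates, while of the other 6 only Pln had. Those of Atp2a2 and Jph1 turned positive without mCDC replicate 2 or without vehicle replicate 1. Over all genes tested the median log2 fold change was 0.07 for transcripts under 2000 bases (2815 genes), 0.03 from 2000 to 4000, -0.08 from 4000 to 6000 and -0.15 at 6000 bases or more (1941 genes). After the trend of fold change with transcript length and GC content was removed, the estimates were -0.03 for Ryr1, -0.03 for Cacna1s, 0.06 for Atp2a2 and 0.01 for Jph1. The trend was fitted on these same libraries, so a move of long transcripts toward the median of all genes was built into this fit. For Casq2 the estimate was 0.29 and for Pln it was -0.25 in the same fit, and the part of length in any of these differences was not tested.

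Ratios between genes within a library do not depend on the scaling between libraries. Atp2a1 over Atp2a2, the fast over the slow pump per length, was 1.47 and 1.19 in the mCDC libraries against 1.02 and 1.49 in the vehicle libraries. Over the longest protein-coding Atp2a2 transcript it was 1.16 and 0.94 against 0.80 and 1.17, so that the slow pump was then the higher one in mCDC replicate 2 and vehicle replicate 1. Casq1 over Casq2 was 3.47 and 3.07 in the mCDC libraries against 3.33 and 3.55 in the vehicle libraries. Both ratios thus overlapped between groups, with differences in mean log2 ratio of 0.10 and -0.08. Sln over the sum of both pumps was 0.0299 and 0.0398 in the mCDC libraries against 0.0324 and 0.0281 in the vehicle libraries, a log2 difference of 0.19. Pln over Atp2a2 was 0.0125 and 0.0189 in the mCDC libraries against 0.0167 and 0.0188 in the vehicle libraries, a log2 difference of -0.21. The release channel and its sensor kept the narrowest range, Cacna1s over Ryr1 being 0.561 and 0.495 in the mCDC libraries against 0.546 and 0.505 in the vehicle libraries, a log2 difference of 0.01. All 5 ratios overlapped between groups, and the exact permutation test over the 4 libraries, two-sided, gave p between 0.667 and 1.0 (1.0 each after adjustment over the 5 ratios), where 0.333 is the smallest p that 2 libraries against 2 allow.

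Pvalb was the exception in its spread. Parvalbumin, the soluble calcium buffer of the fastest fibers, is encoded by Pvalb (chr15:78191114-78206400, minus strand). It had 648 and 16.8 CPM in mCDC replicates 1 and 2, from 17119 and 368 counts, against 161 and 109 CPM in vehicle replicates 1 and 2, from 4221 and 2987 counts. Its mCDC libraries lay 38.6-fold apart, above and below both vehicle libraries, which lay 1.48-fold apart. On the log2 scale the gap between the mCDC libraries was 5.26, where the median over all genes tested was 0.19, and only 2 of the 13652 genes had a wider one. The log2 fold change of 1.30 (SE 1.13, 95% interval -1.30 to 3.90, edgeR adjusted p = 0.809) therefore rested on mCDC replicate 1. With mCDC replicate 1 left out it was -3.003, with mCDC replicate 2 left out it was 2.27, and it lay between 1.05 and 1.62 without either vehicle library. Both fits that leave out an mCDC library pass the thresholds, in opposite directions, but take their spread from the vehicle libraries alone and so say nothing of the spread under mCDC.

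The genes whose pattern over the 4 libraries was most like that of Pvalb, by root mean square difference in log2 CPM around each gene's mean among 7684 genes of at least 10 CPM, were Mybpc2, Myh4 and Slc16a3. Mybpc2, the fast myosin binding protein C, differed by 0.16 and had 344 and 11.8 CPM in the mCDC libraries against 108 and 67.8 CPM in the vehicle libraries. Myh4, the myosin heavy chain of type IIB fibers, differed by 0.74 and had 2096 and 47.5 CPM in the mCDC libraries against 163 and 411 CPM in the vehicle libraries. Slc16a3, a lactate transporter of glycolytic fibers, differed by 0.91 and had 61.6 and 8.95 CPM in the mCDC libraries against 35.8 and 16.9 CPM in the vehicle libraries. In all 3 genes, as in Pvalb, mCDC replicate 1 was the highest and mCDC replicate 2 the lowest of the 4 libraries, and over only 4 libraries this likeness is a description. For Sln the most alike were Crnkl1 (0.01), Arl1 (0.02) and Sipa1l2 (0.02), and for Pln they were Nfkbia (0.04), Ptprm (0.05) and Camsap2 (0.05).

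**Figure D4:**
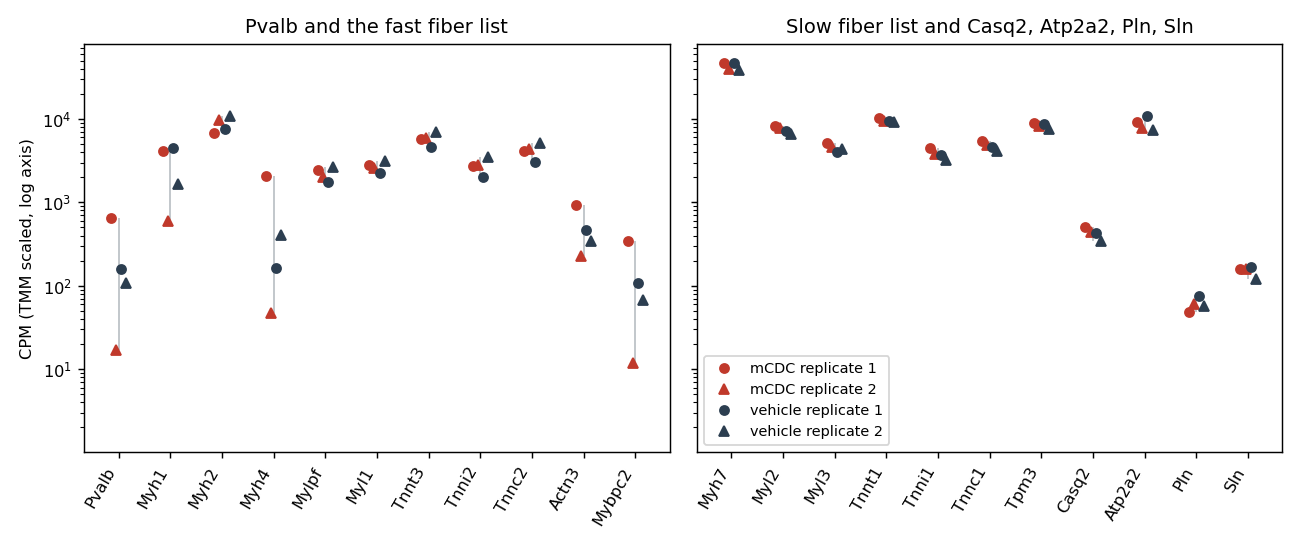
TMM-scaled CPM (vertical log axis) in each library for Pvalb beside the fast fiber list on the left and for the slow fiber list beside Casq2, Atp2a2, Pln and Sln on the right, with mCDC in red, vehicle in dark blue, circles for replicate 1 and triangles for replicate 2. Pvalb, Myh4 and Mybpc2 are high in mCDC replicate 1 and low in mCDC replicate 2, while most other genes lie close together.

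The fast fiber list was divided. Mylpf, Myl1, Tnnt3, Tnni2 and Tnnc2, light chains and troponins of fast fibers, did not share the pattern of Pvalb and were highest in vehicle replicate 2 and lowest in vehicle replicate 1, as in Tnni2 with 2717 and 2825 CPM in the mCDC libraries against 2010 and 3507 CPM in the vehicle libraries. Actn3, the fast-fiber actinin, had 932 and 227 CPM in the mCDC libraries against 471 and 341 CPM in the vehicle libraries, again highest in mCDC replicate 1 and lowest in mCDC replicate 2. Myh1, the myosin of type IIX fibers, had 4162 and 603 CPM in the mCDC libraries against 4490 and 1661 CPM in the vehicle libraries, so that vehicle replicate 1 was highest. Myh2, the myosin of type IIA fibers, had 6749 and 9617 CPM in the mCDC libraries against 7617 and 10860 CPM in the vehicle libraries, lowest where Pvalb was highest. Of the 10 fast fiber genes 0 were called, 7 had a positive estimate and the median log2 fold change was 0.02 (-0.23 without vehicle replicate 1, 0.35 without vehicle replicate 2 and -0.08 without mCDC replicate 1), and their summed level was 32089 and 28267 CPM in the mCDC libraries against 26469 and 34865 CPM in the vehicle libraries. The 7 slow fiber genes all had positive estimates with 0 called and a median of 0.20 (0.12 without mCDC replicate 1), and a summed level of 89268 and 78041 CPM in the mCDC libraries against 85075 and 73505 CPM in the vehicle libraries. In a whole muscle fewer fibers of a type and less RNA in each fiber cannot be told apart, and the part of fiber makeup in the Pvalb values was not tested.

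The labelled tissue was met by its markers, with the 4 skeletal muscle genes Acta1, Ckm, Des and Ttn summing to between 62876 and 69939 CPM per library (median log2 fold change 0.11, turning to -0.0082 without mCDC replicate 1, 0 called). Heart muscle also expresses Atp2a2, Casq2 and Pln, and of the 6 heart muscle genes 3 passed the filter (median 0.01, 0 called). Myh6 had 54.3 and 68.4 CPM in the mCDC libraries against 75.1 and 66.6 CPM in the vehicle libraries. In the same order Tnnt2 had 46.3 and 46.7 against 46.9 and 45.4 CPM, and Tnni3 0.757 and 1.0 against 0.496 and 0.837 CPM. Nppa, Nppb and Mybpc3 had at most 7 counts in any library. Of the 5 regenerating fiber genes Myog was called higher (edgeR adjusted p = 0.612), 3 had positive estimates and the list median was 0.15. Myh3 and Myh8 of this list had negative estimates, -0.15 and -0.12, and were not called. No smooth muscle gene was called, with a median below 0.01 in size. That median was 0.36 without vehicle replicate 2 and -0.16 without vehicle replicate 1. The lists of other cells had negative medians, with -0.64 for fibroblasts, -0.63 for endothelium, -0.76 for tendon, -0.32 for macrophages, -0.44 for Schwann cells, -0.23 for adipocytes and -0.67 for red blood cells. In these, Scx and Cd68 were called higher and Tnmd, Fmod, Comp, Pdgfra, Lum, Csf1r, Vwf and Hba-a2 lower. The edgeR adjusted p of these called genes ran from 0.200 for Hba-a2 to 0.714 for Pdgfra and Csf1r. Cd68 had 4.13 and 15.4 CPM in the mCDC libraries against 2.71 and 4.15 CPM in the vehicle libraries, and the groups overlapped. The other macrophage genes had negative estimates. Hba-a1 had 234 and 243 CPM in the mCDC libraries against 199 and 369 CPM in the vehicle libraries, and was not called. The counts of Hba-a1 and Hba-a2 were not whole in any library, and the division of reads between genes was not tested. Vehicle replicate 2 stood above the other libraries in several of these lists. It had 273 CPM summed over the 4 fibroblast genes against 152, 140 and 156 in mCDC replicates 1 and 2 and vehicle replicate 1. Over the 4 endothelial genes it had 181 CPM against 101, 79.4 and 89.8. Without that library the medians were 0.02 for endothelium, 0.07 for macrophages, 0.03 for Schwann cells, 0.26 for red blood cells and -0.16 for fibroblasts, and without vehicle replicate 1 that of adipocytes was 1.15. The part of these cells in the values of the 10 genes was not tested.

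The other genes of calcium handling were read from 5 lists written with the roles of the proteins in mind. Of 82 genes tested 1 was called higher and 1 lower, 2.44% beside the 4.0% of all genes, with a median log2 fold change of 0.03. Of the triad list, the scaffold and coupling proteins around Ryr1 and Cacna1s, 25 of 26 genes were tested and 0 called, with 17 positive estimates and a median of 0.11 (0.07 without mCDC replicate 1 or without vehicle replicate 2). Its largest positive estimate was that of Cav3, a muscle caveolin, with 94.0 and 117 CPM in the mCDC libraries against 79.3 and 84.4 CPM in the vehicle libraries (log2 fold change 0.37, SE 0.15, edgeR adjusted p = 0.714). Its largest negative one was that of Ryr3, a minor ryanodine receptor of muscle, with 2.35 and 2.88 CPM in the mCDC libraries against 4.08 and 3.06 CPM in the vehicle libraries (log2 fold change -0.45, SE 0.28, edgeR adjusted p = 0.763). The groups did not overlap for either gene, as for 38.7% of all genes tested, and neither reached 1.5-fold.

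Of the list of other pump and reticulum genes 5 of 8 were tested and 0 called, with 4 positive estimates and a median of 0.14, which turned to -0.06 without mCDC replicate 2. The table lists Mrln, the pump inhibitor myoregulin, as 2310015B20Rik, and its 5.19 and 3.93 CPM in the mCDC libraries lay above 3.63 and 3.27 CPM in the vehicle libraries (log2 fold change 0.41, SE 0.25, edgeR adjusted p = 0.763). Atp2a3, the SERCA pump of non-muscle cells, had 10.1 and 10.5 CPM in the mCDC libraries against 10.8 and 17.6 CPM in the vehicle libraries (log2 fold change -0.47, SE 0.25, edgeR adjusted p = 0.735). Its high value was in vehicle replicate 2, the library in which the endothelial and fibroblast lists were high. The part of such cells in the Atp2a3 values was not tested.

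The list of channels, exchangers and store-entry genes at the surface membrane and the IP3 receptors held the most negative estimates, 17 of 21 tested, with a median of -0.26 (-0.15 without vehicle replicate 2). Trpm7, a channel kinase permeable to calcium and magnesium, was called lower, with 25.6 and 19.7 CPM in the mCDC libraries against 35.1 and 33.4 CPM in the vehicle libraries (log2 fold change -0.59, SE 0.17, edgeR adjusted p = 0.619). Itpr3, an IP3 receptor, had the largest negative estimate of -0.78 (SE 0.37) without being called, with 3.52 and 2.65 CPM in the mCDC libraries against 3.43 and 7.20 CPM in the vehicle libraries. Stim2, a calcium sensor of the reticulum, had the largest positive one of 0.32 (SE 0.18). The estimate of Trpm7 was -0.42 without mCDC replicate 2 and -0.56 without vehicle replicate 1, -0.58 with DESeq2 and -0.38 with the length and GC trend removed, and it was not called in any of these. With that trend removed the median of this list was -0.11.

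Of the 10 mitochondrial calcium genes 0 were called, 7 had positive estimates and the median was 0.08 (0.01 without vehicle replicate 2). The estimates ran from -0.25 (SE 0.21) for Slc8b1, the mitochondrial sodium-calcium exchanger, to 0.29 (SE 0.14) for Mcu, the pore of the uniporter. Of the 21 genes of calcium signalling 14 had positive estimates and the median was 0.04, with 1 gene called. That median was 0.21 without vehicle replicate 1 and -0.07 without vehicle replicate 2. Rcan1, a regulator of calcineurin whose own transcription responds to calcineurin, had 544 and 935 CPM in the mCDC libraries against 502 and 330 CPM in the vehicle libraries. It was called higher, with both mCDC libraries above both vehicle libraries (log2 fold change 0.83, SE 0.28, edgeR adjusted p = 0.683), and mCDC replicate 2, where Pvalb was lowest, held its highest value. Rcan1 was not called without mCDC replicate 2, at 0.39, or without vehicle replicate 2, at 0.56. Camk2g, a calcium and calmodulin-dependent kinase, had the largest negative estimate of this list, -0.20 (SE 0.15).

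**Figure D5:**
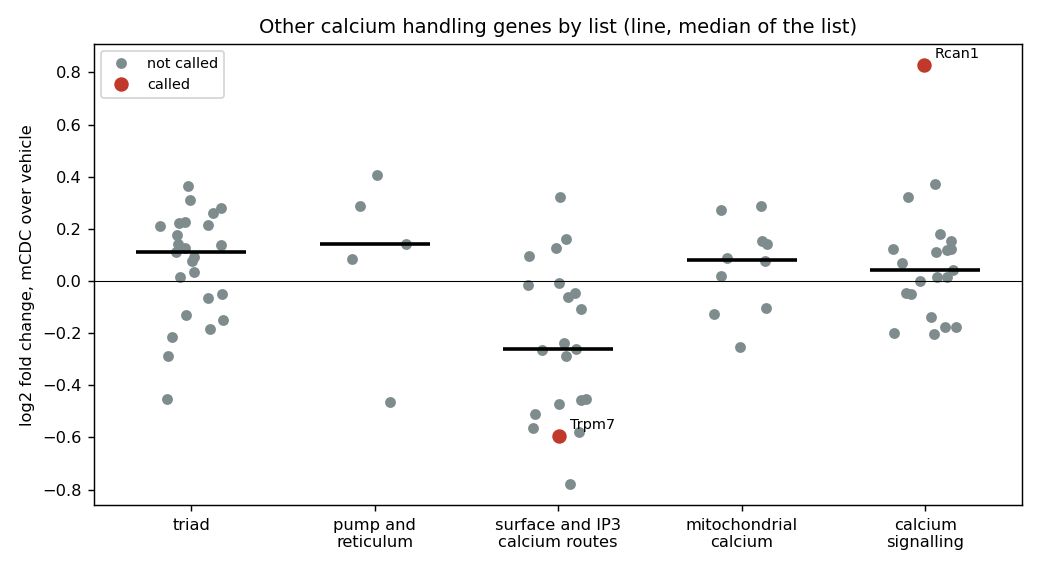
Log2 fold change, mCDC over vehicle (vertical axis), of each tested gene in the 5 lists of other calcium handling genes, with the median of each list as a line and the called genes in red. Trpm7 and Rcan1 are the 2 called genes, and the median is lowest, at -0.26, for the surface and IP3 list.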

How the data were processed

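Soleus RNA of 2 mCDC and 2 vehicle mdx mice was read from one end, and the authors aligned the reads with Bowtie2 2.1.0 to a UCSC transcript set of mm10 and deposited the results as RSEM 1.2.15 expected counts per gene, not normalized. The library kit is a stranded mRNA kit in the sample records and another maker's in the paper. Of all deposited values 15.7% were not whole, since RSEM divides reads that match several genes. Expected counts were rounded and tested in R 4.3.3 with edgeR 4.0.16 (filterByExpr, TMM, quasi-likelihood F-test with legacy = FALSE), which left 13652 genes. SEs are the absolute log2 fold change over the square root of F, and intervals of 95% used the total degrees of freedom. Totals per library were 22481391 to 27187425, which set the precision of low genes. The members and gene lists were chosen with earlier results of these data known. In each calcium list the called genes and the genes with the largest positive and negative estimates are named, and for Sln, Pln and Pvalb the 3 most alike genes. Other genes were named after their values were seen. Positions, lengths, GC content and sequences came from GENCODE annotation of GRCm38, with RefSeq synonyms, where 22969 symbols matched directly and 949 through an older name, and ratios used counts per kilobase. In the reticulum list Strit1, Arln and Erln were not matched and not analysed here. Ratios were compared by exact permutation with scipy 1.17.1. Alternatives were DESeq2 1.42.0, other edgeR tests, scalings and filters, a fit without the trend in length and GC content, a replicate block, and omission of single libraries. Scripts were tested on simulated counts with known changes.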

Additional observations from a re-analysis of the deposited data

How the results depend on the processing

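With 2 libraries per group, each result was recomputed without each library in turn. The number of genes called higher ran from 112 to 396 and lower from 237 to 834, called members from 0 to 1 (Pvalb, without mCDC replicate 1 or 2, where the vehicle libraries alone give the spread) and called calcium list genes from 1 to 6. Log2 ratio differences ran from -0.17 to 0.38 for Atp2a1 over Atp2a2, -0.16 to 0.013 for Casq1 over Casq2, -0.013 to 0.40 for Sln over both pumps, -0.50 to 0.091 for Pln over Atp2a2 and -0.086 to 0.098 for Cacna1s over Ryr1. Log2 fold changes that changed sign ran from -0.41 to 0.16 for Jph1, -0.25 to 0.31 for Atp2a1, -0.36 to 0.23 for Atp2a2, -0.070 to 0.42 for Sln and -3.003 to 2.27 for Pvalb. Cacna1s, Ryr1, Casq1, Casq2 and Pln kept one sign in the 4 omissions and the 10 other settings but not their size. Over the omissions Cacna1s ran from -0.25 to -0.050, Ryr1 from -0.20 to -0.12 and Casq1 from 0.016 to 0.42. Over the same omissions Casq2 ran from 0.13 to 0.47 and Pln from -0.48 to -0.062. Among these omissions Casq1 was smallest without mCDC replicate 1, and Cacna1s and Pln without vehicle replicate 1. Over the 10 other settings Cacna1s ran from -0.23 to -0.029 and Ryr1 from -0.24 to -0.035. Both genes came nearest to 0 in the fit corrected for length and GC content. Atp2a1 turned to -0.022 with total count scaling, and Jph1 to 0.0097 and Atp2a2 to 0.056 with the length and GC trend removed. Calcium list genes called were 1 with DESeq2, 5 with total count scaling and 1 with the length and GC trend removed, beside 2. Of all genes called, 31.5% were higher, 41.4% (207 higher and 293 lower) with that trend removed and 19.2% (121 higher and 508 lower) with total count scaling, which moved the all-gene median to -0.09. The cause of these changes was not tested.

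Replicate numbers are shared between groups but no label pairs the mice. Across all genes tested, same-numbered libraries did not deviate together (correlation -0.04). Among the 10 genes, though, replicate 1 was the higher library in both groups for every gene but Pln. With the replicate number as a block, 172 genes were called higher and 309 lower, 0 members and 3 calcium list genes were called, Pvalb turned to -0.29, and Casq2 fell below an unadjusted p of 0.05 in edgeR's quasi-likelihood test, at under 1.5-fold.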
